A study of Mus musculus with 4 samples.

Results

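Tumour necrosis factor (TNF) was added for 16 hours to mouse dendritic cells that had differentiated for 10 days in culture, and the 2 expression arrays that describe this step, day 10 with TNF and day 10 without it, are compared here gene by gene. They are 2 of the 4 arrays of a series that also holds the in vitro amplified bone marrow progenitor and cells after 7 days of differentiation, each on 1 array of total RNA. Both day 10 cultures came from amplified progenitors, per the labels, and differ by the TNF treatment. The labels give no strain, age, TNF dose, number of cultures or number of pooled mice. With 1 array a side there is no replicate, so no test was possible, no p-value is given, and every difference is one between 2 arrays.

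Of 8220 genes measured on the array, 4308 were compared, because their level lay above a floor of 428 units on at least 1 of the 2 arrays. A level is a scaled probe-set intensity, and levels of different genes are not compared with each other. A fold whose dimmer side lies at or under the floor is taken against 428 units and written as "at least". Genes were sorted into lists by what their products do (surface, secreted, signalling, survival and metabolic), 28 lists in all, with 10 lists of cell type markers.

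Dendritic cells take up antigen in tissues and, once matured by signals such as TNF, move to lymph nodes and present it to T cells. TNF acts through its receptors and TRAF adaptors on the kinases that degrade IkB proteins, which frees NF-kB dimers to enter the nucleus. Maturation is known for more costimulatory and adhesion molecules on the surface, for CCR7, the receptor that guides cells to lymph nodes, and for less antigen uptake.

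Markers of the labelled cell type were examined on these arrays. Of 15 dendritic cell markers, 14 lay above the floor, with a median log2 ratio of 1.21. Of these, 8 were at least 2-fold higher with TNF, where 4.71% of all genes compared were. They were Ly75, Cd83, Fscn1, Ccr7, Ccl22, Irf4, Irf8 and Ccl17, some of them maturation genes described below. The other 6 had log2 ratios between -0.59 (Cd74) and 0.46 (Itgax). Such ratios compare the 2 arrays and do not identify a cell type, and the lists were chosen with earlier results known. Among the 14 was Itgax, which encodes CD11c, at 105.5 units in the progenitor, 6188 at day 7, 21075 at day 10 and 29065 with TNF. The 15th, Zbtb46, stayed at or under 77.4 units on all 4 arrays. None of the 13 measured T and NK cell markers and none of the 10 stromal markers lay above 428 units on either day 10 array. On at least 1 of these arrays, 5 of 10 B cell markers did, as did 4 of 11 mast cell and basophil markers. So did 2 of 8 erythroid and megakaryocyte markers and 9 of 34 genes restricted to other organs. A level above the floor therefore does not by itself identify a cell type. Of 17 granulocyte markers 13 lay above it, and they differed between the arrays. Their summed level was 264438 units in the progenitor, 173233 at day 7, 252935 at day 10 and 84065 with TNF. That of macrophage markers was 141856 at day 10 and 98621 with TNF, and 9 of 12 measured lay above the floor on at least 1 of these arrays. C1qa, C1qb and C1qc, of the same list, lay at or under 66.9 units on both. The day 10 sums were led by a few bright genes, among them Chil3 and S100a8 for granulocytes and Mmp12 and Cd68 for macrophages. Similar sums on different arrays can therefore hold different genes, and a sum does not measure cell content. In cultured mixtures such as these, fewer cells of a type and less RNA per cell cannot be told apart.

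Over all genes compared, 203 were at least 2-fold higher with TNF, 4.71% of the 4308, and 222 were at least 2-fold lower, 5.15%. With the floor at 105 units instead the counts were 544 and 539, and at 802 units 133 and 124. The median log2 ratio was -0.04, and 1979 genes had a ratio above 0. On the higher side, Tspan13 and Orm2 (log2 ratios of 1.0) and Sf3b1 (1.004) lay just inside the 2-fold line, and Ccl5 (0.995) and Plat (0.994) just outside it. Agreement between probe sets of a gene gives the only measure of spread used here. Over 369 genes whose brightest pair of probe sets lay above the floor on both arrays, the log2 ratios of the pair differed with an SD of 0.56, or 0.39 per probe set. On this scale a 2-fold difference is 1, and spread between cultures is not in that figure. Nor is a shift shared by all probe sets of an array. The 9 bacterial spike-in probe sets had a median log2 ratio of -0.50, and 6 control probe sets of beta-actin and Gapdh -0.35.

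The genes of the NF-kB pathway are described first by their promoters, since NF-kB dimers bind DNA at kappaB motifs. The 250 bases before the start of each gene are shown on the gene's own strand, from RefSeq on build GRCm38.p6, for 3 inhibitors or subunits of the pathway that were higher with TNF. Capitals mark matches to the kappaB consensus, a motif of 10 letters searched on both strands; overlapping matches form 1 run. The Nfkbia stretch is chr12:55492648-55492897, minus strand, that of Nfkb2 chr19:46304487-46304736, plus strand, and that of Tnfaip3 chr10:19015411-19015660, minus strand. For Nfkb2, the table holds 3 starts and for Tnfaip3 2, of which the one listed first is shown. The other Nfkb2 starts have 1 match each in their 250 bases and the other Tnfaip3 start has 0.
Nfkbia: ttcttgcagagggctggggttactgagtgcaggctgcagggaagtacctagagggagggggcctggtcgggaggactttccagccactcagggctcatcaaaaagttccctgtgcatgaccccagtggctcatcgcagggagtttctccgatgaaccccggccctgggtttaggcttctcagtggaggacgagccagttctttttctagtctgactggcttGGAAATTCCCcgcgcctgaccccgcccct
Nfkb2: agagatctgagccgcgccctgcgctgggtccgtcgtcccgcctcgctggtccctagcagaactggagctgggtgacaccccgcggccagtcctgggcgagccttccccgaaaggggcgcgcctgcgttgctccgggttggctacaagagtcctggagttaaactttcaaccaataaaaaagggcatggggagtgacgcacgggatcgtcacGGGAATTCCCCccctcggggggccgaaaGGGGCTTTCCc
Tnfaip3: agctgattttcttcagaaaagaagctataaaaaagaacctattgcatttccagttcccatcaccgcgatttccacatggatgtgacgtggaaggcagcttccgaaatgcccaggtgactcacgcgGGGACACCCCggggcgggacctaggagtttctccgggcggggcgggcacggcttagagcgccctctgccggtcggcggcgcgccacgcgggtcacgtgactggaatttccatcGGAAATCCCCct

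The match in Nfkbia spans bases 29 to 20 before the start, those in Nfkb2 begin 39 and 11 bases before it, and those in Tnfaip3 125 and 12. Of all 27025 genes with a promoter in the table, 8.23% held a match in the same 250 bases, and of the 3527 compared genes with an entry, 11.5%. Among genes at least 2-fold higher with TNF 25 of 167 had a match, 15.0%, and among those at least 2-fold lower 26 of 178, 14.6%. The shares on both sides were close. A match describes the letters of this window and no binding.

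Nfkbia encodes IkB-alpha, the inhibitor that NF-kB itself induces. It stood at 8338 units in the progenitor, 4843 at day 7, 8784 at day 10 and 29967 with TNF, 3.41-fold higher than at day 10, and its other probe set was 5.06-fold higher, at 2201 and 11134 units. The level with TNF exceeded that of every other array on both probe sets. Relb, the subunit of the noncanonical arm that supports dendritic cell development, was at 217, 1366, 2633 and 7559 units in the same order, 2.87-fold higher than at day 10, and its other probe set was 2.11-fold higher. Nfkb2, whose p100 product is processed to the partner of RelB, was at 99.3, 1660, 2245 and 6231 units, 2.78-fold higher. For Nfkb2 and the brighter Relb probe set the order of the arrays was the same, with the progenitor under the floor. The other Relb probe set was at 386, 630, 445 and 939 units, higher at day 7 than at day 10.

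Tnfaip3 encodes the deubiquitinase A20, a feedback inhibitor, and was 3.06-fold higher, at 557 and 1705 units. Tank, a TRAF-binding adaptor, was 3.49-fold higher at 1769 and 6168 units, and Tnip1, a partner of A20, 2.14-fold. Bcl3, a nuclear IkB protein, was at least 2.03-fold higher, and Traf6 2.01-fold (its other probe set 0.77 on the log2 scale); both were chosen after their values were seen. These 8 were the members past 2-fold of 17 compared in the list of NF-kB subunits, inhibitors and kinases, and none was at least 2-fold lower, where 4.71% and 5.15% of all genes were. The list median was 0.66 against -0.04 over all genes. Some inhibitors and some subunits of the pathway were therefore past 2-fold on the higher side. Others were not past 2-fold, with log2 ratios of 0.66 for Nfkbib, 0.45 for Nfkbie, 0.15 for Ikbkb, 0.12 for Rela and -0.71 for Myd88. These were chosen after their values were seen.

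The receptors for TNF were not on that side. Tnfrsf1a, the gene of TNF receptor 1, was at 3523 units in the progenitor, 3126 at day 7, 3513 at day 10 and 1326 with TNF, 2.65-fold lower than at day 10. Tnfrsf1b, the gene of TNF receptor 2, was at 10620 and 8285 units, 1.28-fold lower. Traf1, an adaptor that binds TNF receptor 2, was at 217, 631, 1030 and 4289 units in array order, 4.16-fold higher. Of 13 genes compared in the list of TNF receptors and adaptors, Traf1 was the 1 higher and Tnfrsf1a the 1 lower. The median was -0.17, and 4.71% of all genes were higher and 5.15% lower. Tnf itself was under the floor on both arrays, at 191 and 418 units.

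**Figure D1:**
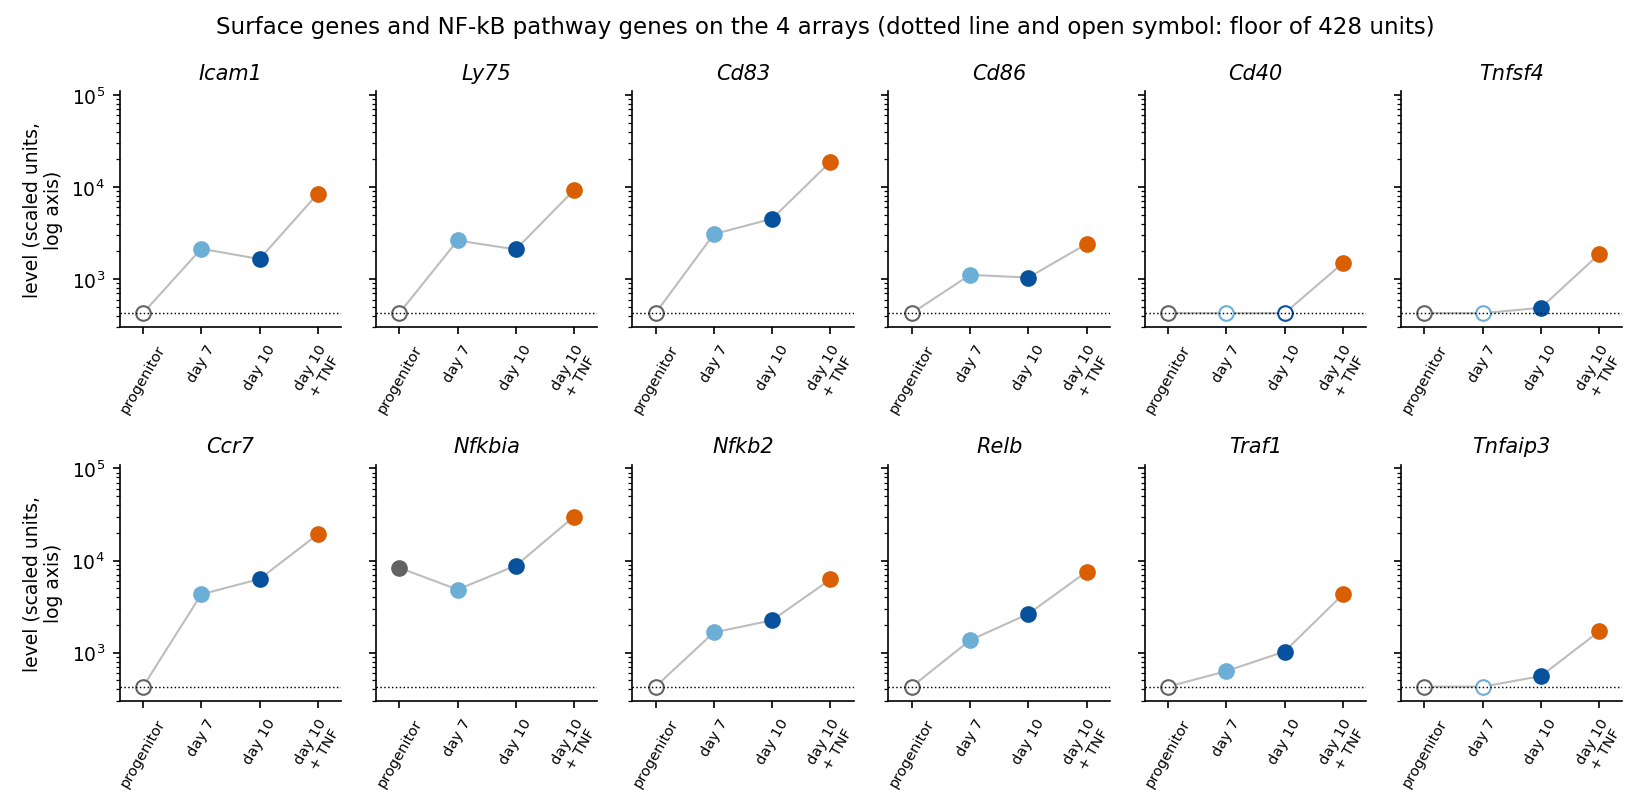
Scaled level on a log axis (vertical) on the 4 arrays (horizontal, 1 array each) for 7 surface genes (Icam1 to Ccr7) and 5 NF-kB pathway genes (Nfkbia to Tnfaip3). Open symbols lie at or under the floor of 428 units, drawn at it. The array with TNF holds the top value for each of the 12 genes.

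Surface genes of maturation were mostly on the higher side. Of 19 members compared in the maturation and costimulatory list, 11 were at least 2-fold higher and 0 lower, with a median log2 ratio of 1.21, against -0.04 and 4.71% over all genes. With the floor raised to 802 units the median was 0.72. Icam1, the ligand of LFA-1 on T cells, was at 111 units in the progenitor, 2140 at day 7, 1654 at day 10 and 8462 with TNF, 5.12-fold higher than at day 10. Ly75, the endocytic receptor DEC-205, was at 282, 2629, 2103 and 9267 units, 4.41-fold higher. Both genes had similar levels at day 7 and day 10, and the TNF array was the highest of the 4.

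Cd83, a marker of mature dendritic cells that stabilises MHC class II at the surface, had 2 probe sets in close agreement, 4.14-fold and 3.97-fold higher, and the brighter one read -108, 3078, 4524 and 18714 units. Cd86 and Cd80 encode the ligands of CD28. Cd86 was at 1042 and 2414 units by 1 probe set, 2.32-fold higher, and at 219 and 1797 by the other, at least 4.20-fold. Cd80 was at 471 and 1318 units, 2.79-fold higher, and its other probe set stayed under the floor. For both genes the TNF array was the brightest of the 4.

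Cd40, whose product receives help from T cells, was under the floor on all arrays but the one with TNF, at 1496 units against 146 at day 10, at least 3.49-fold higher. Tnfsf4, the OX40 ligand, was at 490 and 1868 units, 3.82-fold higher, and Cd1d1, which presents lipids to NKT cells, at 585 and 1910 units, 3.26-fold. Fas, the death receptor, was at least 2.96-fold higher. Tnfrsf9, the receptor 4-1BB, and Cd200, an inhibitory ligand, both chosen after their values were seen, were 2.88-fold and at least 2.04-fold higher. Another Tnfrsf9 probe set was under the floor on all arrays. Not all surface genes of the list shared this: Il7r was at 12734 and 15554 units, Cd48 at 6359 and 6458 and Cd44 at 3493 and 2814, also chosen after their values were seen.

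Receptors for migration split. Ccr7 was at 30.4 units in the progenitor, 4296 at day 7, 6296 at day 10 and 19239 with TNF, 3.06-fold higher than at day 10, and Cxcr4, the receptor for CXCL12, was 2.05-fold higher. Ccr1, a receptor for inflammatory chemokines, was 2.03-fold lower and Ltb4r1, the receptor for leukotriene B4, 3.97-fold, at 5101 and 1284 units. Of 12 receptors compared, 2 were higher and 2 lower (median log2 ratio 0.10), against 4.71% and 5.15% of all genes. Ccr2, which recruits monocytes, was at 2235 and 1288 units. Other receptors for inflammatory attractants were not lower by as much: Ptafr, the receptor for platelet-activating factor, was 1.88-fold higher at 523 and 981 units, and the complement receptor gene C5ar1 was at 1351 and 1323. C5ar1 was chosen after its values were seen.

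Ratios below 0 outnumbered those above 0 among adhesion receptors (10 and 4) and among uptake and pattern recognition receptors (9 and 5). Itgb5, the integrin beta-5 chain that serves uptake of dying cells, was at -691, 740, 3082 and -158 units in array order, at least 7.20-fold lower than at day 10. Emb, which encodes embigin, was 3.32-fold lower, and Itgb7 was 2.29-fold lower by 1 probe set, with a log2 ratio of 0.75 by its other. Those were the 3 lower members of 14 compared, with 0 higher, against 5.15% and 4.71% of all genes. Itgb1, the common beta-1 chain, was at 14204 and 25578 units.

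Mrc1, the mannose receptor, was at 314 units in the progenitor, 7033 at day 7, 9009 at day 10 and 2714 with TNF, 3.32-fold lower than at day 10. Adgre1, the gene of the macrophage marker F4/80, was 2.50-fold lower, at 9345 and 3741 units. Both are macrophage markers, of which 2 of 9 compared were lower and 0 higher, against 5.15% and 4.71% of all genes. Csf1r, another macrophage marker, chosen after its values were seen, was at 11354 and 12111 units. Clec4e, the receptor Mincle for fungal and mycobacterial glycolipids, was at 236 and 1799 units, at least 4.20-fold higher. Of the 14 uptake and pattern recognition receptors compared, Clec4e was the 1 higher and Mrc1 the 1 lower (median log2 ratio -0.18). The shares over all genes were 4.71% and 5.15%. The part of macrophage content in the Mrc1 and Adgre1 values was not tested.

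Genes of antigen presentation were nearly level. In the MHC class II list 1 of 14 genes was at least 2-fold higher and 0 lower (median log2 ratio 0.14). The shares over all genes were 4.71% and 5.15%. H2-Aa, a class II alpha chain, was at 100111 units before TNF and 81388 after it, H2-Ab1, a beta chain chosen after its values were seen, at 46287 and 49614, and the invariant chain gene Cd74 at 107887 and 71535. After quantile normalization the log2 ratio of H2-Aa turned from -0.30 to 0.10, and that of Cd74 went from -0.59 to -0.27. The 1 higher gene was Ifi30, the lysosomal thiol reductase that unfolds antigens, 2.47-fold at 4400 and 10863 units.

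MHC class I genes had 0 of 13 at least 2-fold higher and 0 lower, against 4.71% and 5.15% of all genes. Their median was 0.30. Psmb8, an immunoproteasome subunit, was 1.95-fold higher at 8780 and 17144 units, Tap1, a peptide transporter subunit, 1.73-fold, and Psmb9 1.59-fold. H2-M2, a class I-like gene outside that list, was at 1136, 3823, 11407 and 49164 units in array order, 4.31-fold higher than at day 10 (log2 ratio 2.11, or 1.81 after quantile normalization). It was among the 8 highest ratios of genes above the floor on both arrays.

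Secreted proteins covered both extremes of the comparison. Cfb, complement factor B of the alternative pathway, was at 42 units in the progenitor, 91 at day 7, 167 at day 10 and 7795 with TNF, at least 18.2-fold higher, the highest ratio of all 4308 genes. Inhba, the subunit of activin A, was at 1790, 1130, 1122 and 8207 units, 7.31-fold higher than at day 10, and Orm1, an acute phase protein, at least 4.72-fold higher, at 416 and 2022 units. Cfb was thus under the floor on every array but that with TNF, whereas Orm1 had been at 3396 units in the progenitor.

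Cytokine genes of the interleukin-1 family lay on both sides. Il1b, an inflammatory cytokine, was at -113, 305, 78 and 2153 units in array order, at least 5.03-fold higher than at day 10, and Il1a was 2.22-fold higher at 872 and 1936 units. Il18, a family member that drives interferon-gamma production, was at 80, 3326, 3349 and 318 units, at least 7.82-fold lower. Il1b was above the floor with TNF alone, and Il18 was above it at day 7 and day 10 alone. Il1r2, the decoy receptor for interleukin-1, chosen after its values were seen, was 4.11-fold lower at 5536 and 1346 units, but its other probe set had a log2 ratio of 0.01. Ltb, the membrane-bound lymphotoxin beta, was 2.47-fold lower and Csf3, the gene of G-CSF, 2.35-fold. Over 16 cytokine and growth factor genes compared, 3 were higher and 3 lower (median log2 ratio 0.07), against 4.71% and 5.15% of all genes. Il12b lay under the floor on both arrays.

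Chemokine ligands had 4 of 9 genes higher and 1 lower (median log2 ratio 1.0), against 4.71% and 5.15% of all genes. With the floor at 105 units, where more dim ligands enter, the median was 0.10. Ccl22 and Ccl17 encode ligands of CCR4 on T cells. Ccl22 was at 388 units in the progenitor, 9348 at day 7, 15502 at day 10 and 45053 with TNF, 2.91-fold higher than at day 10. Ccl17 was at -311, 6021, 37488 and 80445 units, 2.15-fold higher. Both had their top level on the TNF array and were under the floor in the progenitor.

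Ccl9, a CCR1 ligand, was at 5619, 18797, 10958 and 43243 units in array order, 3.95-fold higher, and Cx3cl1, fractalkine, at 429 and 1213 units, 2.83-fold. Ccl5 was 1.99-fold higher. Ccl4, an inflammatory chemokine, had been at 2746 units at day 7 and was at 1073 and 480 here, 2.24-fold lower. Ligands that attract T cells and ligands for inflammatory receptors were therefore both present among the higher genes, and Ccl4 alone among the lower.

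**Figure D2:**
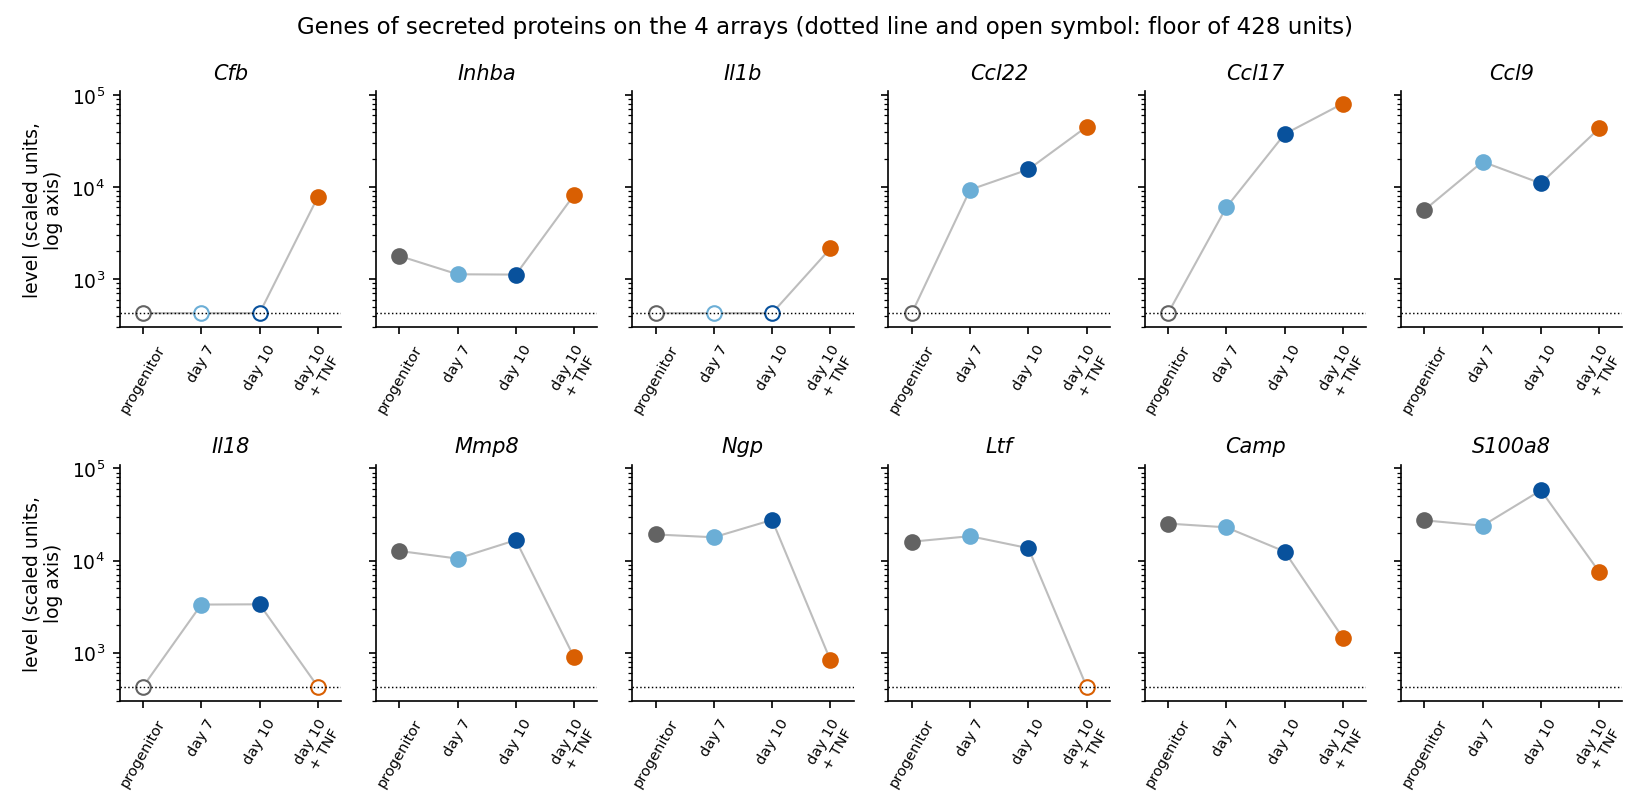
Scaled level on a log axis (vertical) on the 4 arrays (horizontal, 1 array each) for 12 genes of secreted proteins. Open symbols lie at or under the floor of 428 units, drawn at it. Cfb and Il1b lie above the floor with TNF alone, while Mmp8, Ngp, Ltf, Camp and S100a8 have their lowest level there.

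The lowest ratios belonged to proteins of granulocyte granules and cytosol. Ngp, the neutrophilic granule protein, was at 19177 units in the progenitor, 17864 at day 7, 27554 at day 10 and 831 with TNF, 33.2-fold lower than at day 10. Ltf, lactoferrin, was at 15998, 18367, 13610 and 423 units, at least 31.8-fold lower, and Mmp8, neutrophil collagenase, at 12689, 10495, 16640 and 893 units, 18.6-fold lower. For these 3 genes the lowest level on the other arrays was 10495 units and the highest with TNF 893 units.

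Camp, the cathelicidin gene, was 8.62-fold lower at 12520 and 1452 units, S100a8, a subunit of calprotectin, 7.66-fold at 57731 and 7537, and S100a9, its partner, 4.50-fold at 28322 and 6290. Mmp9, gelatinase B, was at least 3.24-fold lower. In the list of secreted host defence proteins 6 of 16 were lower and 2 higher (median log2 ratio -0.45), against 5.15% and 4.71% of all genes. Of these 6 lower genes, 5 are granulocyte markers, and so are both lower genes of the protease and matrix list, Mmp8 and Mmp9. Without granulocyte markers, a choice made after seeing the data, the defence list had 1 of 9 lower and 2 higher with a median of -0.06, and the protease list 0 of 12 lower and 1 higher, the granzyme inhibitor Serpinb9, 2.34-fold.

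As a list, granulocyte markers had 8 of 13 members at least 2-fold lower, where 5.15% of all genes were, and 0 higher. All 13 ratios were below 0, and the median was -1.87. The primary granule genes were already dim at day 10: Mpo was at 26660 units in the progenitor, 5381 at day 7, 200.0 at day 10 and -235 after TNF. Elane, neutrophil elastase, was at 999 and 636 units on the last pair. The chitinase-like Chil3 was at 85765 and 63141 units, and Lcn2, lipocalin 2, at 606 and 528; all 4 were chosen after their values were seen. The receptor gene Csf3r, chosen after its values were seen, was 3.64-fold lower by its brightest probe set, with log2 ratios of -0.10 and -2.46 from its others.

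Other genes known from granulocytes, chosen after their values were seen, were low with TNF as well. Pglyrp1, a peptidoglycan-binding granule protein, was at least 7.50-fold lower at 3210 and 295 units, Padi4, which citrullinates histones, at least 3.61-fold, and Ifitm6 at least 14.3-fold at 6112 and 198 units. Of the eosinophil markers, Epx and Prg2 were 2.35-fold and 2.67-fold lower, but a further Prg2 probe set had a log2 ratio of 0.75. What part granulocyte content has in lower values of genes outside the marker list was not tested.

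**Figure D3:**
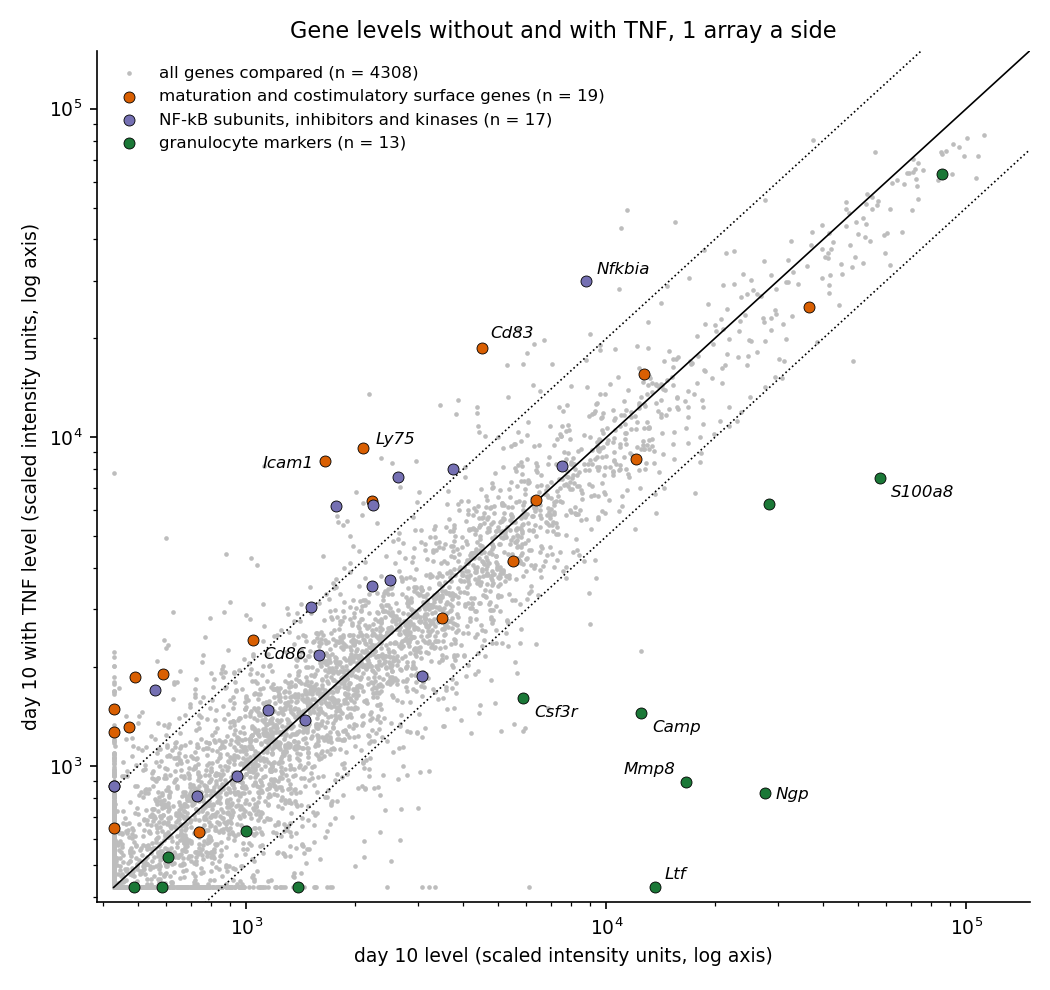
Level with TNF (vertical) against level at day 10 (horizontal), both log axes in scaled units with values raised to the floor of 428 units, for the 4308 genes compared, 1 array a side. The solid line is equality and the dotted lines 2-fold; 11 of 19 maturation genes lie above the upper line and 8 of 13 granulocyte markers below the lower one.

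Signalling genes below cytokine receptors had 21 of 26 ratios above 0. In the list of Jak, STAT, SOCS and interferon regulatory factors 8 of 26 genes passed 2-fold on the higher side, where 4.71% of all genes did, and 0 on the lower (median log2 ratio 0.44). Stat5a, which GM-CSF activates, was at 1847 units in the progenitor, 2764 at day 7, 3448 at day 10 and 12581 with TNF, 3.65-fold higher than at day 10, and 4.75-fold by its other probe set. Socs2, a STAT5 target and feedback inhibitor, was at 6706 and 19792 units, 2.95-fold higher, and Jak2, the kinase upstream, at 2956 and 8453, 2.86-fold. Another Jak2 probe set was under the floor on all 4 arrays. Stat5a, Socs2 and Jak2 stood 2.86-fold to 3.65-fold higher by their brightest probe sets. Related members of the list were not past 2-fold, with log2 ratios of 0.78 for Stat5b, 0.12 for Cish, 0.01 for Jak3 and -0.09 for Jak1. These were chosen after their values were seen.

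Irf4 and Irf8, which shape dendritic cell subsets, were at 4370 and 11840 units (2.71-fold higher) and at 5314 and 13312 units (2.50-fold). Batf3, a partner of IRF8 in cross-presenting cells, and Stat4, a mediator of interleukin-12 signals, were chosen after their values were seen and were 2.39-fold and 2.16-fold higher. Prdm1, the repressor Blimp-1, was at least 2.54-fold higher at 263 and 1087 units. Socs3, an inhibitor of interleukin-6 signals, was at 5538 and 4179 units, 1.33-fold lower. Il12rb2, a chain of the interleukin-12 receptor, chosen after its values were seen, was 3.08-fold higher at 462 and 1424 units.

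The MAP kinase and immediate-early list had 2 of 28 higher and 0 lower (median log2 ratio 0.07), against 4.71% and 5.15% of all genes. Junb, an AP-1 subunit, was 8.25-fold higher by its brightest probe set, at 598 and 4931 units, and 1.63-fold by its other, at 1803 and 2943. Gadd45b, an NF-kB target that restrains JNK, was 2.01-fold higher at 5005 and 10062 units, while its relative Gadd45g, chosen after its values were seen, was 3.06-fold lower at 4434 and 1447. Both Junb probe sets were higher, but by log2 ratios of 3.04 and 0.71, further apart than the SD of 0.56 between probe sets.

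Among regulators of small and heterotrimeric G proteins 0 of 23 were higher and 1 lower, Rgs2, at least 2.44-fold (median log2 ratio -0.25). The shares over all genes were 4.71% and 5.15%. Adcy6, an adenylyl cyclase, was 5.03-fold higher at 878 and 4419 units, and Ptger4, a prostaglandin E2 receptor that signals through cyclic AMP, 3.25-fold at 1782 and 5788. Pik3r1, the p85 subunit of PI 3-kinase, was 3.82-fold higher, while Inpp5d, the phosphatase SHIP-1 that opposes it, was 3.34-fold lower at 4206 and 1259 units. The last 3 were chosen after their values were seen.

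Transcription factors outside these lists lay on both sides. Ets2, an ETS family factor, was at 226, 928, 625 and 2940 units in array order, 4.71-fold higher than at day 10. Lyl1, a helix-loop-helix factor of blood progenitors, was at 14067, 8730, 5959 and 1308 units, 4.55-fold lower, and its other probe set was at 1807 and 213 units, at least 4.22-fold lower. Id1, an inhibitor of such factors, chosen after its values were seen, was at least 5.75-fold lower at 2461 and -25 units. Lyl1 and Id1 were lower on each of the 4 arrays in turn, progenitor to TNF. Ckap4, a membrane protein of the endoplasmic reticulum, and Clgn, the chaperone calmegin, were also among the 8 lowest ratios of genes above the floor on both arrays, 4.89-fold lower at 2525 and 517 units and 4.59-fold at 5883 and 1281. The Clgn values came from a probe set whose name marks it as shared within a gene family. Another Clgn probe set was under the floor on all 4 arrays.

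Genes of the Bcl2 family set the balance of survival and death at mitochondria. Of 13 compared, 0 were called higher and 0 lower, near the 4.71% and 5.15% over all genes, and the median was -0.14. Bcl2, Bid and Bok were at or under the floor with TNF, so their ratios are bounds, and the other 10 log2 ratios lay between -0.59 and 0.63. Bcl2, which blocks mitochondrial death, was at 420, 226, 778 and 313 units in array order, at least 1.82-fold lower by a probe set close to the floor, with its 2 others under it. Bcl2l1, which encodes Bcl-xL, was at 4838 and 3616 units, 1.34-fold lower. Bcl2l11, the killer protein Bim, was 1.55-fold, 1.20-fold and 1.49-fold higher by its 3 probe sets. The 3 Bcl2l11 probe sets were all on the higher side.

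Death receptors, caspases and their inhibitors had 5 of 21 higher and 1 lower (median log2 ratio 0.05), against 4.71% and 5.15% of all genes. Cflar, the caspase-8 inhibitor c-FLIP, was at 1067, 1390, 796 and 1921 units in array order, 2.41-fold higher than at day 10. Fas and Gadd45b, given above, Pdcd4, a translation inhibitor, 3.82-fold at 1068 and 4081 units, and Casp4, an inflammatory caspase, 2.87-fold at 758 and 2175, were the others. Casp6, an executioner caspase, was 2.24-fold lower at 2192 and 980 units. Birc3, an inhibitor of apoptosis, was under the floor on all 4 arrays, with 65 units with TNF. Pro-death and anti-death members therefore both appear among the higher genes.

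**Figure D4:**
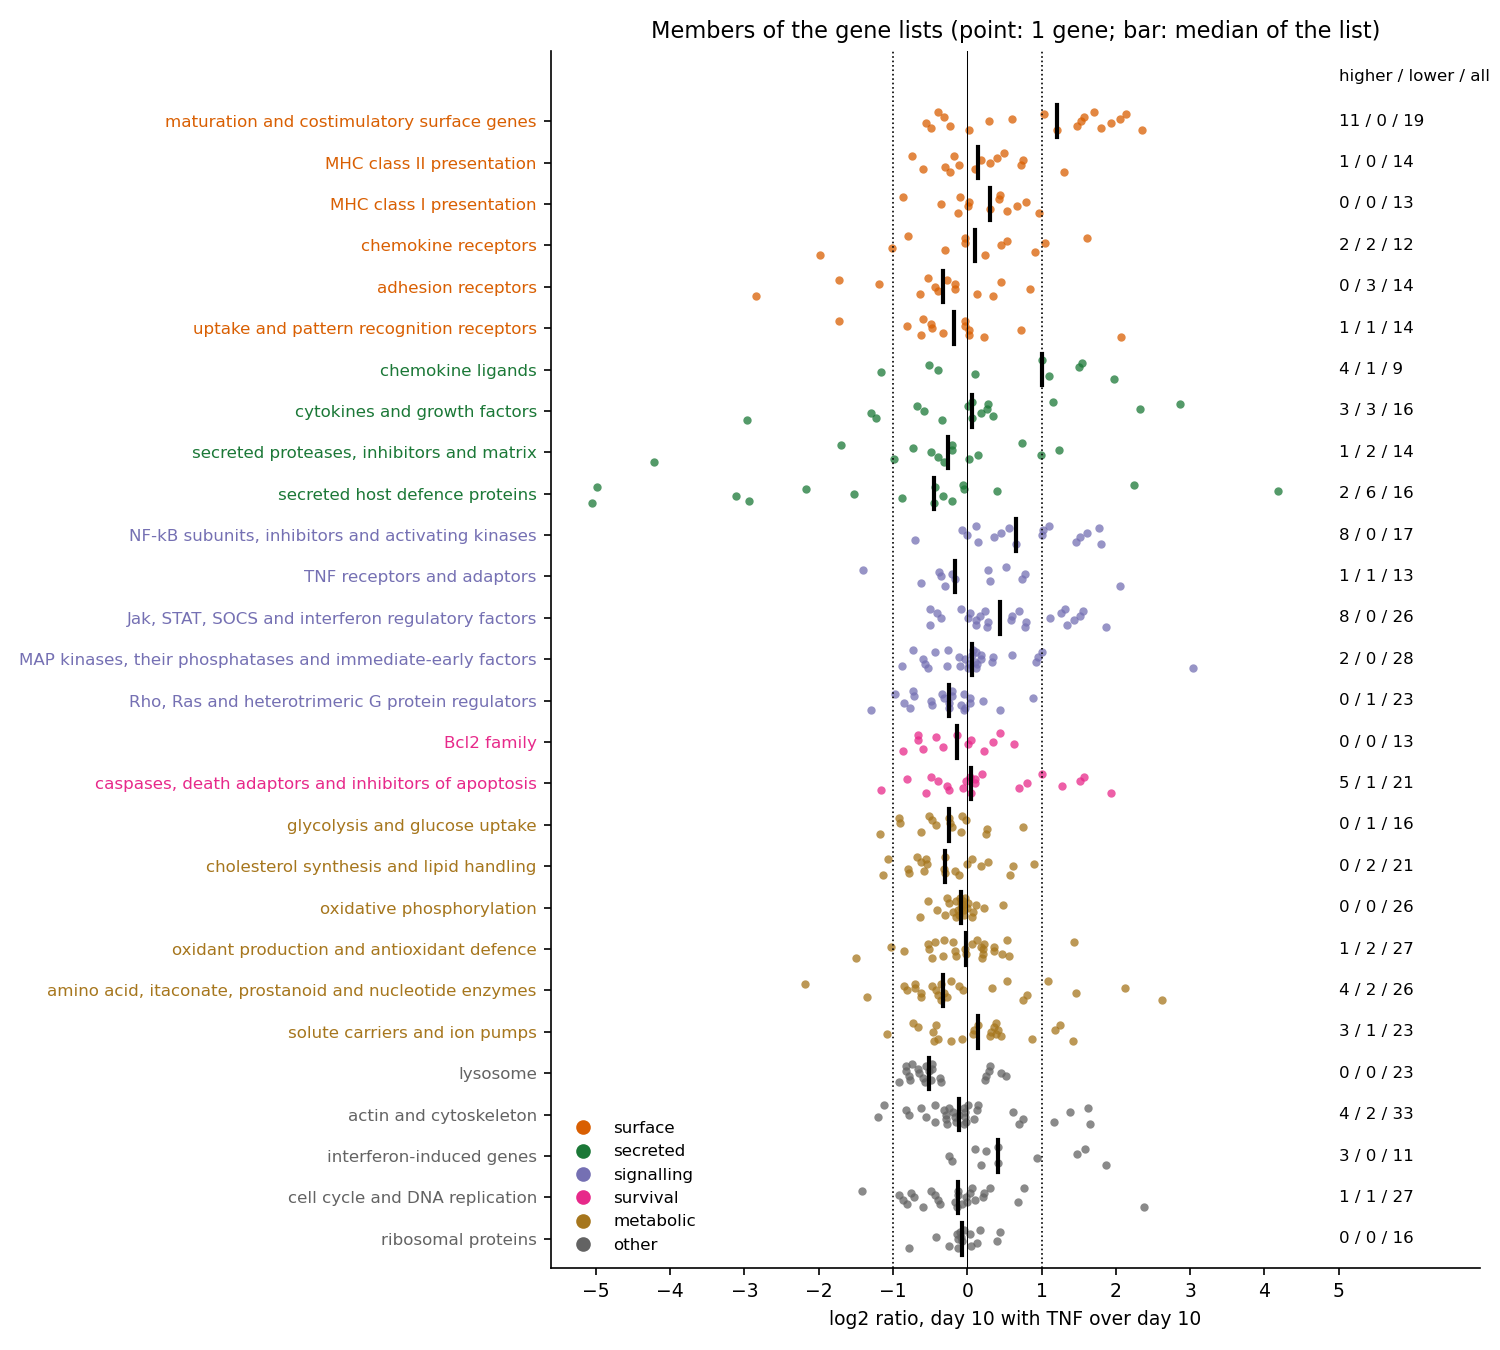
Log2 ratio of day 10 with TNF over day 10 (horizontal) for each compared member of the 28 pathway lists (rows, coloured by class), 1 point a gene, with the median as a bar and dotted lines at 2-fold. The numbers give members at least 2-fold higher, lower and all compared; maturation surface genes have 11, 0 and 19, and lysosome genes 0, 0 and 23.

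Over all 138 metabolic genes compared, 8 were at least 2-fold higher and 8 lower (median log2 ratio -0.11), shares near the 4.71% and 5.15% over all genes, so the values that follow describe single enzymes. Car2, carbonic anhydrase 2, was at 1087 units in the progenitor, 2778 at day 7, 2196 at day 10 and 13531 with TNF, 6.16-fold higher than at day 10. Acod1, which makes itaconate, was at 188 and 1862 units, at least 4.35-fold higher, with its other probe set under the floor on all 4 arrays. Ass1, the enzyme that rebuilds arginine from citrulline, was 2.78-fold higher at 2093 and 5814 units, and Glul, glutamine synthetase, at least 2.11-fold. Arg1 stayed under the floor on every array.

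Aldh2, mitochondrial aldehyde dehydrogenase, was at 7706, 8243, 6876 and 1506 units in array order, 4.57-fold lower than at day 10, and 4.70-fold by its other probe set. Psat1, an enzyme of serine synthesis, was at least 2.55-fold lower at 1092 and 206 units, down from 10072 in the progenitor. That list of amino acid, itaconate, prostanoid and nucleotide enzymes had 4 of 26 higher and 2 lower (median log2 ratio -0.33). The shares over all genes were 4.71% and 5.15%.

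Sod2, the mitochondrial superoxide dismutase and an NF-kB target, was at 992, 990, 502 and 1358 units in array order, 2.71-fold higher than at day 10. Its list of oxidant and antioxidant genes had 1 of 27 higher and 2 lower, against 4.71% and 5.15% of all genes. The list median was -0.02. The lower ones were Gstm1, a glutathione transferase, 2.84-fold at 48533 and 17114 units by a probe set whose name marks it as shared within a gene family, and Gss, glutathione synthetase, at least 2.04-fold. Gstm3, a relative outside the list, was 5.58-fold lower by a shared probe set and had a log2 ratio of 0.70 by another.

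Pathways of energy and sterol metabolism held few genes past 2-fold, where 4.71% of all genes were higher and 5.15% lower. Oxidative phosphorylation had 0 of 26 genes past 2-fold, log2 ratios between -0.64 and 0.48 and a median of -0.09. Glycolysis had 0 of 16 higher and 1 lower, the neuronal-type glucose transporter Slc2a3, at least 2.26-fold (median log2 ratio -0.24), while the main transporter Slc2a1 was at 4416 and 3760 units. Sterol and lipid genes had 0 of 21 higher and 2 lower, Fdps, which makes farnesyl diphosphate, 2.19-fold, and Lipa, lysosomal acid lipase, 2.10-fold. Hmgcs1, at the start of sterol synthesis, was at 1928 and 1783 units.

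Solute carriers had 3 of 23 genes higher and 1 lower (median log2 ratio 0.15), against 4.71% and 5.15% of all genes. Slc25a10, the mitochondrial dicarboxylate carrier, was 2.67-fold higher at 432 and 1154 units, Slc6a12, the betaine transporter, 2.39-fold, and Slc38a2, an amino acid transporter, 2.27-fold. Slc6a4, the serotonin transporter, was 2.12-fold lower at 3397 and 1602 units. The first pair of higher genes lay close to the floor at day 10.

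Lysosomal genes were mostly a little lower. Of 23 compared, 0 passed 2-fold, where 4.71% of all genes were higher and 5.15% lower. Of the 23, 17 had a ratio below 0, and the median was -0.52, against -0.04 over all genes. Man2b1, which trims mannose from glycoproteins, was 1.89-fold lower at 24990 and 13231 units, and Ctsc, the protease that activates granule proteases, 1.69-fold at 18530 and 10992, with both its probe sets alike (log2 ratios -0.75 and -0.73). The 41 brightest probe sets by mean level had a median log2 ratio of -0.33. Less bright probe sets leaned less: bins of log2 mean level that begin at 13, 14 and 15 had medians of -0.06, -0.09 and -0.12. What part brightness has in the lysosome median was not tested. Bacterial transcripts spiked into the samples, read by 9 probe sets, had a median of -0.50.

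Genes of cell shape, interferon response and division completed the lists. Fscn1, the actin bundler of dendrites, was at 1058, 7778, 5284 and 16553 units in array order, 3.13-fold higher than at day 10, and Marcksl1 and Marcks, membrane-bound actin regulators, were 3.08-fold and 2.25-fold higher. Coro1a, a leukocyte coronin, and Gsn, gelsolin, were 2.29-fold and 2.17-fold lower. In all 4 of 33 cytoskeletal genes were higher and 2 lower (median log2 ratio -0.11), against 4.71% and 5.15% of all genes.

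Gbp2, an interferon-induced GTPase, was at 2373 and 8660 units, 3.65-fold higher, and Mx1 and Usp18 were at least 3.01-fold and 2.79-fold higher, from levels under the floor. They were the 3 of 11 interferon-induced genes at least 2-fold higher, where 4.71% of all genes were, with 0 lower and a median of 0.41. Ccnd2, cyclin D2, was at 1203, 451, 29 and 2226 units in array order, at least 5.20-fold higher than at day 10, and its partner kinase gene Cdk4 was 2.67-fold lower at 2315 and 867. The other 25 of 27 cell cycle genes were not called (median log2 ratio -0.13), nor were any of 16 ribosomal protein genes (median log2 ratio -0.07).

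Genes with several probe sets allowed a check of each ratio. Of 491 genes with at least 2 probe sets above the floor, 6 had every such probe set at least 2-fold higher, 1.22%, and 3 had every one at least 2-fold lower, 0.611%. The higher ones were Cd83, Stat5a, Nfkbia, Cd86, Relb and Clic4, a chloride channel protein with 3 probe sets at 2.29-fold to 3.44-fold. The lower ones were Aldh2, Lyl1 and Ceacam1, a carcinoembryonic antigen family adhesion molecule at 1149 and 391 units, with log2 ratios of -1.42 and -1.20. With every probe set of a shared type (by its suffix) left out, 3 of these genes were still called higher, Cd83, Nfkbia and Clic4, and 0 lower; Stat5a, Cd86, Relb, Aldh2, Lyl1 and Ceacam1 each then had fewer than 2 probe sets left.

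By the brightest probe set alone, 17 of the 491 genes were at least 2-fold higher, and for 13 of them every probe set had a ratio above 0. On the lower side there were 20, and for 14 every ratio was below 0. A probe set of opposite sign occurred for 4 higher and 6 lower genes, but none of these reached 2-fold the other way. Genes with 1 probe set above the floor cannot be checked in this manner. Some called genes, among them Cdk4, Fdps, Gss, Gstm1, Slc2a3 and Slc38a2, had further probe sets that stayed under the floor on both day 10 arrays.

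**Figure D5:**
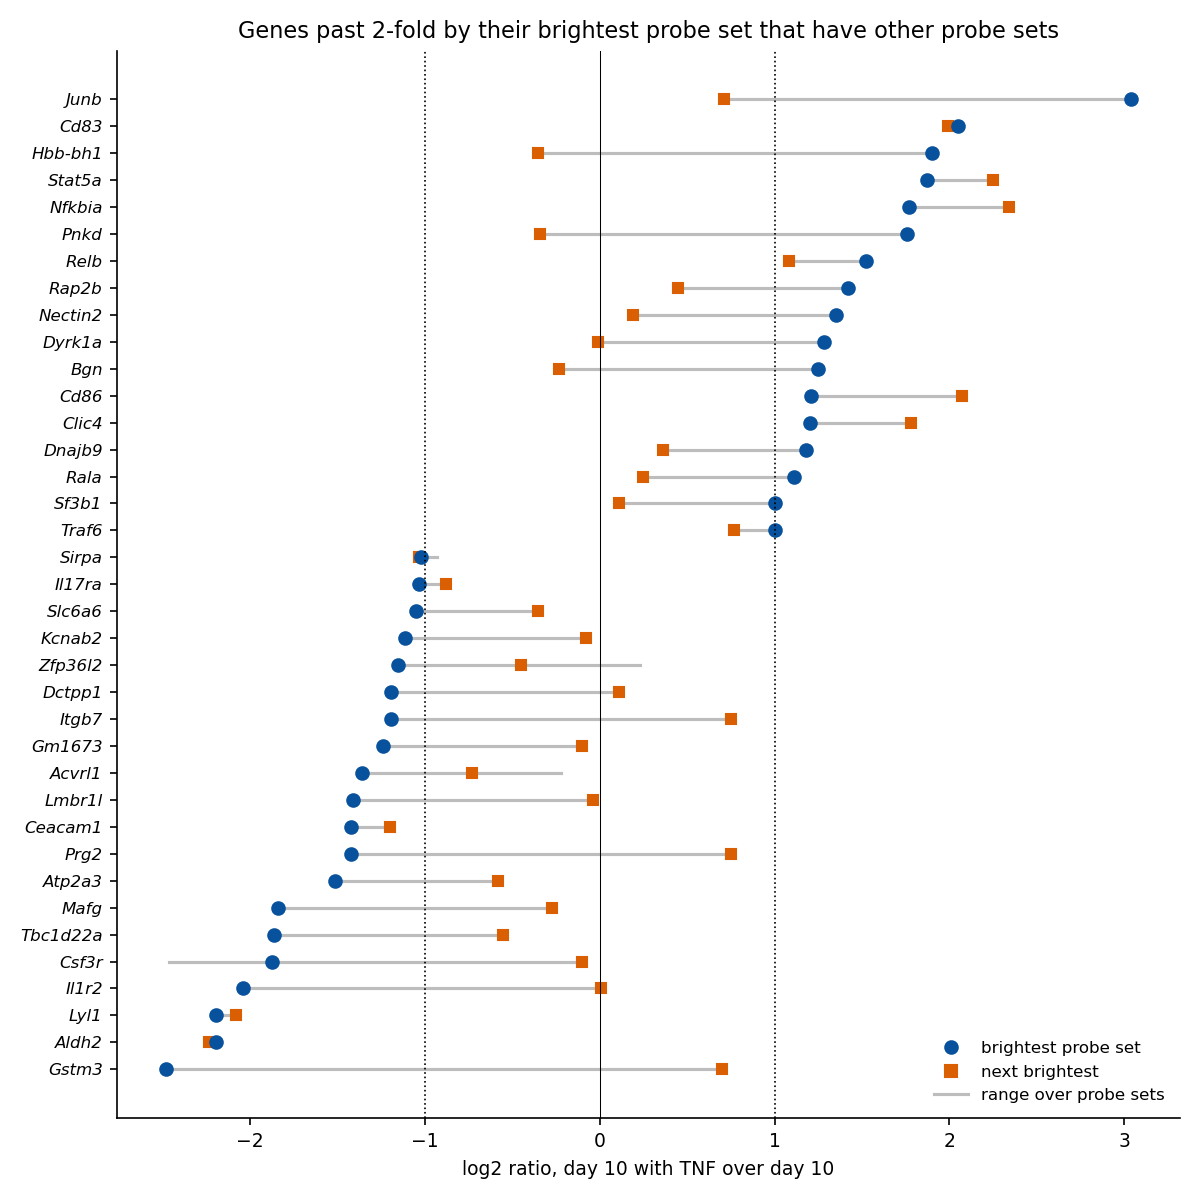
Log2 ratio of day 10 with TNF over day 10 (horizontal) for the 37 genes (rows) past 2-fold by their brightest probe set that have another probe set above the floor; circles are the brightest, squares the next, grey lines the range. Cd83, Stat5a, Nfkbia, Relb, Cd86 and Clic4 lie wholly above 2-fold (right dotted line), while 4 higher and 6 lower genes cross 0.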

How the data were processed

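Probe-set intensities on a linear scale were deposited by the authors, for 12654 probe sets on each array. No source used here names the software, the background method or detection calls; between 22.8% and 24.3% of values lie below 0. The trimmed mean of each deposited array is 1000.0 units. The number of arrays limits the precision.

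Gene names came from the platform annotation: 10276 have 1 symbol and 363 several, which were left out with those of none and 66 controls. In Python 3.11.15, the 75th percentiles of the arrays were made equal (factors 0.962 to 1.05), values under 428 units, the 60th percentile, were set to that floor, and log2 was taken; the steps were tested on simulated data. A gene takes its brightest probe set over the 4 arrays. No test was possible with 1 array a group.

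Genes were named from up to 12 on each side with agreeing probe sets (6 higher and 3 lower qualified), the 8 highest and 8 lowest ratios above the floor on both arrays, up to 6 per list, and 36 listed in advance (33 measured). Lists hold 1053 genes, 825 measured. Members and lists were chosen with earlier results of these data known. Alternatives were quantile normalization, values as deposited, floors at the 40th and 70th percentile, means over probe sets, leaving out shared probe sets, and 3-fold.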

Additional observations from a re-analysis of the deposited data

Results flagged for a closer look

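Probe sets with no gene symbol or with several were in none of the comparisons above. Of 2312 such probe sets, 648 lay above the floor on at least 1 of the 2 arrays, and 32 of them were at least 2-fold higher with TNF and 26 at least 2-fold lower than at day 10, which is the control array. Their genes were not analysed here.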

How the results depend on the processing

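No paired analysis was possible because each group has 1 array. The median log2 ratio over all genes lay between -0.05 and -0.01 under every setting tried, and the share of higher genes among those past the fold between 46.2% and 54.5%. Of the 203 higher and 222 lower genes, 201 and 201 stayed past 2-fold after quantile normalization and 199 and 201 in the values as deposited. Totals followed the floor: at the 40th percentile (105 units) 544 genes were higher and 539 lower, with 16 and 10 by agreeing probe sets, and at the 70th percentile (802 units) 133 and 124. A 3-fold rule gave 55 and 46, with 3 higher by agreeing probe sets. Without shared probe sets 3 genes were higher and 0 lower by agreeing probe sets. Among list medians, chemokine ligands went to 0.10 at the lower floor, granulocyte markers to -1.44 at the lower and -2.55 at the higher floor, maturation surface genes to 0.72 at the higher floor, and eosinophil markers to -0.78 with means over probe sets. No named ratio past 2-fold changed sign, but that concerns the sign alone. Of the named values, 49 of 212 were counted as moved with the floor at the 70th percentile and 27 of 231 at the 40th. With means over probe sets 8 of 231 were, and after quantile normalization 3 of 231. Moving the floor bounds dim values differently and also alters which genes are compared. There were 6151 at the 40th percentile, 4308 in the main setting and 3312 at the 70th percentile. The parts of these and of other causes were not tested. Levels near 428 units, background noise and the lack of replicates limit all values.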
